A study of Mus musculus with 5 samples.

Results

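Ntn1, Unc5a, Kif1a and Gfap are neural genes placed downstream of the RNF12-REX1 axis, and the question was where REX1 and RNF12, the latter as WT and as the catalytically inactive H569A,C572A form, were bound at them in undifferentiated mouse embryonic stem cells (mESCs). Peaks of 3 ChIP-seq lists were assigned to a gene where the summit lay inside its GENCODE body or within 5 kb of either end. This gave 43 of 98124 RNF12 H569A,C572A peaks, 49 of 96050 REX1 peaks and 67 of 97602 RNF12 WT peaks, or 159 of 291776 in all, at 4 of 21755 protein-coding genes.

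RNF12, also called RLIM, is a RING-type E3 ubiquitin ligase that marks the transcription factor REX1 (ZFP42) for degradation by the proteasome. Netrin-1, the product of Ntn1, is a secreted guidance cue that attracts or repels growing axons, and UNC5A is one of the receptors through which it repels them. KIF1A is a kinesin-3 motor that carries synaptic vesicle precursors along axons, and GFAP is the intermediate filament protein of astrocytes. Expression was not measured here, so the cell type could not be checked against its markers.

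All cells were female mESCs of strain 129/Sv-Cast/Ei. The REX1 library came, by its label, from WT cells with FLAG-V5-REX1, although the study describes REX1 occupancy as determined earlier. Both RNF12 libraries came from Rlim+/- cells that stably carried FLAG-V5-RNF12, in its WT or its H569A,C572A form, on a puromycin-selected pCAG vector, so the tagged protein was expressed from a constitutive promoter beside the remaining Rlim allele. The RNF12 cells were treated with 15 μM MG132, a proteasome inhibitor, for 3 h and cross-linked with 2 mM disuccinimidyl glutarate and 1% formaldehyde before precipitation through the V5 tag. Each list rests on 1 library, so no test between conditions was possible. Shares carry 95% Wilson intervals, which cover counting error alone, and the depth of the libraries is unknown because the lists hold no read totals.

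Each peak has a fold enrichment, the ratio of signal to control at its summit. The median fold enrichment was 4.47 in the REX1 list, 4.59 in the RNF12 WT list and 6.83 in the RNF12 H569A,C572A list, and which control stood behind which list was not settled. A peak is therefore described by its percentile, the share of peaks of the same list with a fold enrichment at or below its own. Positions are in bp from the outermost annotated start of the gene, positive in the direction of transcription. A promoter peak has its summit within 1 kb of any annotated transcription start site (TSS) of the gene. Peaks of different lists that overlap by at least 1 bp, directly or through a chain, form 1 site. A site takes the first class that any of its peaks has, in the order promoter, exon, intron and flank.

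The sequences below show 101 bases centred on 6 summits, on the coding strand of the gene and from GRCm38 (mm10), with letters matching ATGGCNNC or AAGATGGC on either strand in capitals. These strings represent the motif shared by REX1 and its relative YY1, and the strings overlap, since ATGGC ends one and begins the other. The Kif1a intron site is the only one of the 6 that was found in all 3 lists and also holds a match, the Ntn1 upstream and intron summits belong to REX1 alone, and the last 3 summits, which hold no match, belong to an RNF12 WT and RNF12 H569A,C572A site of Ntn1 and to sites of all 3 lists at Unc5a and Gfap.
Kif1a, intron, all 3 lists, chr1:93100284-93100384, minus strand: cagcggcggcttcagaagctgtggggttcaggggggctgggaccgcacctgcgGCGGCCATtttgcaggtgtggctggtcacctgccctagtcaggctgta
Ntn1, upstream, REX1, chr11:68404339-68404439, minus strand: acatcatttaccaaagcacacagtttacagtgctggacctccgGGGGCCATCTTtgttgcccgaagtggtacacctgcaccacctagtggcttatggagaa
Ntn1, intron, REX1, chr11:68300557-68300657, minus strand: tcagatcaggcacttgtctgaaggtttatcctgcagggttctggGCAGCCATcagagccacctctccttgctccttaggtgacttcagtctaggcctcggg
Ntn1, intron, both RNF12 lists, chr11:68321497-68321597, minus strand: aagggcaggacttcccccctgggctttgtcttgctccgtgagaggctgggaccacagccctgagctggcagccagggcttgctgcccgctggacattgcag
Unc5a, intron, all 3 lists, chr13:54955977-54956077, plus strand: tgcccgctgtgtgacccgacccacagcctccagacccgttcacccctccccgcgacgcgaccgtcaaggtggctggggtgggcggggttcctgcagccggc
Gfap, coding exon, all 3 lists, chr11:102893159-102893259, minus strand: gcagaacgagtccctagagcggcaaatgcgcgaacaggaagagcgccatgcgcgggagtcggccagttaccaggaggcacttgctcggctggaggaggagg

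The promoters differed in base composition. Of the 4 genes, 3 have an entry in the RefSeq promoter table of the same build, and the bases upstream of the annotated start are shown with every CpG in capitals. A relation between CpG content and binding was not tested.
Unc5a, chr13:54949161-54949410, plus strand: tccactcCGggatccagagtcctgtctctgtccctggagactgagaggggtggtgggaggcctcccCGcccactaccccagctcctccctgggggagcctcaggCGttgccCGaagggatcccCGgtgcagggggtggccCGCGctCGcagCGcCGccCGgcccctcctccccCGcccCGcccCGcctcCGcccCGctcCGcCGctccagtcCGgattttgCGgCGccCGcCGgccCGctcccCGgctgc
Kif1a, chr1:93101952-93102124, minus strand: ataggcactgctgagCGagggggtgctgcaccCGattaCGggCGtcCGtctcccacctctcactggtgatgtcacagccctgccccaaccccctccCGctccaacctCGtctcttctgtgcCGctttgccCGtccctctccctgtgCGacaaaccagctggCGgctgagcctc
Gfap, chr11:102897201-102897450, minus strand: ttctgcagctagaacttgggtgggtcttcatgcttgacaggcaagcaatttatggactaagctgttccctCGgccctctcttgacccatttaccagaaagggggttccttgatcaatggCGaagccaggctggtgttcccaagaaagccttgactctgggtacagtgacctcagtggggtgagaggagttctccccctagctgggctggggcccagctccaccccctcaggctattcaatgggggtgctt
The Unc5a stretch holds 25 CpG in 250 bases, the Kif1a stretch 11 in 173 and the Gfap stretch 2 in 250. Over the whole promoter entry the GC content is 78.3% for Unc5a, 67.0% for Kif1a and 55.7% for Gfap, against a median of 52.7% over 32851 entries. A second Kif1a entry, at an internal start and without a peak within 1 kb in any list, has 51.7% GC and 1 CpG.

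**Figure D1:**
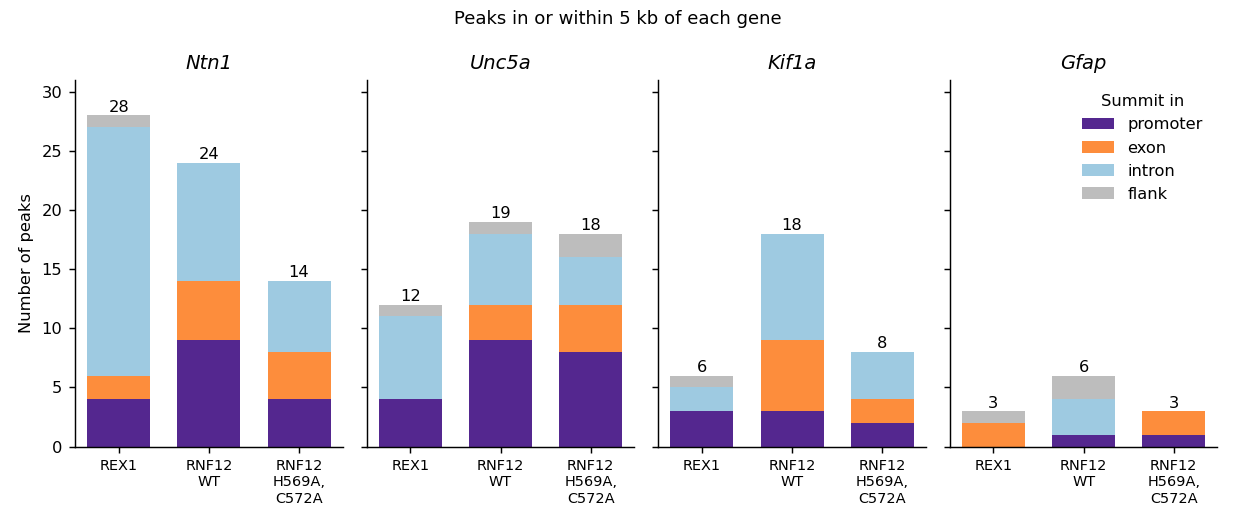
Number of peaks with the summit in or within 5 kb of each gene (y axis), by list (x axis) and by where the summit lies (colours). Ntn1 has most REX1 peaks in introns, Kif1a has 18 RNF12 WT peaks against 6 REX1 peaks, and Gfap has no REX1 promoter peak.

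Ntn1, Unc5a and Kif1a each had promoter peaks in all 3 lists, whereas Gfap had promoter peaks in both RNF12 lists and none in the REX1 list. Thus 3 of the 4 genes had a REX1 promoter peak, and all 4 had one in each RNF12 list. Most protein-coding genes did as well, namely 67.5% in the REX1 list, 68.9% in the RNF12 WT list, 67.7% in the RNF12 H569A,C572A list and 60.7% in all 3. All 4 genes had a peak of each list somewhere in the window, as did 73% of protein-coding genes. With 4 genes, these counts do not set the members apart from other genes, and the differences lie in where and how high the peaks are. The promoter peaks of Gfap and the RNF12 WT promoter peaks of Kif1a all had a −log10 q, the significance given by the peak caller, under 5.

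The numbers of peaks were distributed differently over the genes. Ntn1 had 28 REX1, 24 RNF12 WT and 14 RNF12 H569A,C572A peaks, Unc5a had 12, 19 and 18, Kif1a had 6, 18 and 8, and Gfap had 3, 6 and 3. Ntn1 is the longest of them, with a body of 191460 bp, and Gfap the shortest, with 13577 bp. Per 100 kb of window, Unc5a was the densest gene in each list, with 18.0 REX1, 28.5 RNF12 WT and 27.0 RNF12 H569A,C572A peaks, against medians over all protein-coding genes of 6.71, 7.03 and 5.95. Of all protein-coding genes, 21.4%, 12.8% and 8.17% were as dense as Unc5a. Kif1a had 6.22 REX1 peaks per 100 kb, below the median, and 18.7 RNF12 WT peaks.

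The peaks were of middling or low rank. Their median percentile was 43.1 in the REX1 list, 47.2 in the RNF12 WT list and 30.5 in the RNF12 H569A,C572A list, and the order-statistic intervals, 29.3 to 50.6, 39.2 to 57.2 and 20.1 to 57.6, overlapped. Above the 90th percentile lay 2 RNF12 WT peaks, 1 RNF12 H569A,C572A peak and 0 REX1 peaks. The RNF12 WT peaks are an intron peak of Ntn1 and that of the Gfap exon site, and the RNF12 H569A,C572A peak lies at the inner starts of Ntn1.

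**Figure D2:**
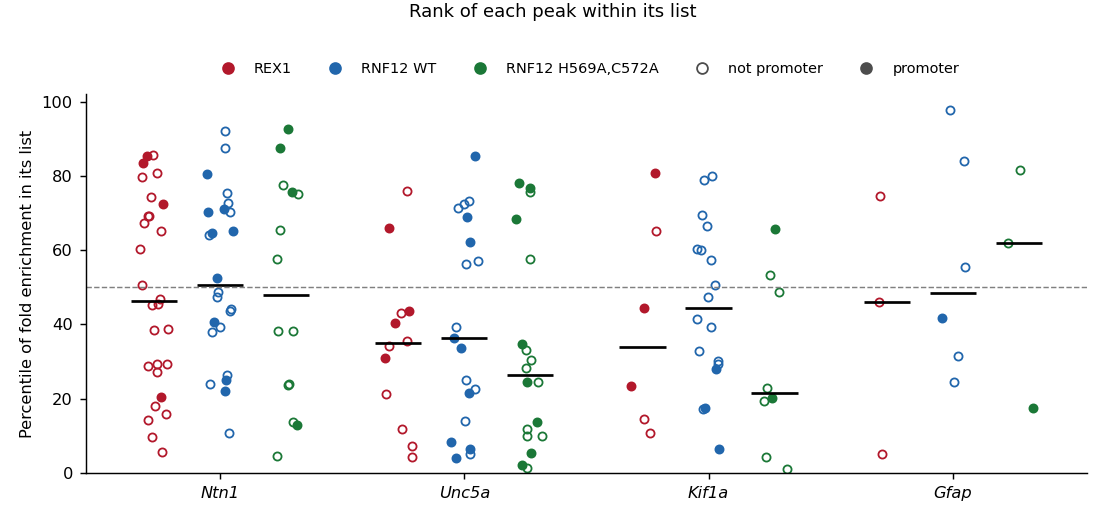
Percentile of the fold enrichment of every peak within its own list (y axis) by gene (x axis) and list (colour). Filled circles are promoter peaks, black bars are medians and the dashed line is the list median; most groups spread from below 20 to above 70.

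At Ntn1 (chr11:68209364-68400823, minus strand) 21 of 28 REX1 peaks lay in introns and 4 at the starts, against 10 and 9 of 24 RNF12 WT peaks and 6 and 4 of 14 RNF12 H569A,C572A peaks. The gene has an outer TSS at position 0 and inner TSSs at 13811 and 13997. All 4 promoter sites, 1 at the outer and 3 at the inner starts, were found in all 3 lists when peaks were joined by an overlap of 1 bp. Joined by an overlap of 50% of both peaks, or by summits within 100 bp, Ntn1 had 1 site in all 3 lists.
At the outer start, the site at chr11:68399799-68400815 joined 7 peaks. The highest REX1 peak was at position 304 (fold enrichment 6.46, percentile 85.4), the highest RNF12 WT peak at 261 (5.86, 80.5) and the RNF12 H569A,C572A peak at 658 (10.4, 75.6). The REX1 and RNF12 WT summits lie in the first exon, whereas the RNF12 H569A,C572A summit is 1 bp from a lower RNF12 WT summit in the intron (3.80, percentile 25.0).
At the inner starts, the site at chr11:68386678-68387106 had the RNF12 WT and RNF12 H569A,C572A summits on the same base, position 13912, and the REX1 summit 14 bp away. Its percentile was 87.5 in the RNF12 H569A,C572A list, 83.5 in the REX1 list and 65.0 in the RNF12 WT list. The neighbouring upstream site, chr11:68387114-68387623, was low for REX1 (3.63, percentile 20.4) and RNF12 H569A,C572A (4.57, 12.8) and higher for RNF12 WT (5.33, 70.2).
The site at chr11:68384807-68386529, over a coding exon downstream of the inner starts, held 9 peaks and the highest RNF12 H569A,C572A peak of the 4 genes, at position 14716 (fold enrichment 17.4, percentile 92.6). RNF12 WT had a peak 73 bp from it (5.37, percentile 71.2). The highest REX1 peak of this site lay further in, at 15404 (5.51, percentile 74.2), 21 bp from a second RNF12 H569A,C572A peak (10.8, percentile 77.6).

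Most intron sites of Ntn1 were in 1 list. Of 31, 17 were found in the REX1 list alone, 6 in the RNF12 WT list alone, 4 in the RNF12 H569A,C572A list alone, 2 in the REX1 and RNF12 WT lists and 2 in both RNF12 lists. None was in all 3, which allows a share of up to 11%. Sharing by all 3 lists was low away from promoters in general. Counted by peak, 17.3% of such REX1, 19.2% of such RNF12 WT and 14.6% of such RNF12 H569A,C572A peaks overlapped both other lists. Of all 96050 REX1 peaks, 48317 overlapped no other list. The 17 REX1 peaks had fold enrichments from 2.94 to 6.51 and a median percentile of 45.1, and 6 were above the 50th percentile. They included the highest REX1 peak of the gene, at position 137498 (6.51, percentile 85.6).
Where REX1 and RNF12 WT shared an intron site, their ranks differed. At chr11:68273812-68274083 the REX1 peak was at percentile 80.8 and the RNF12 WT peak at 10.8, with summits 143 bp apart, and at chr11:68379467-68379630 the percentiles were 65.1 and 75.3, with summits 44 bp apart.
The highest RNF12 WT peak of Ntn1, at position 109925 (6.86, percentile 92.1), lay in an intron without a peak of another list on it. The RNF12 WT and RNF12 H569A,C572A intron site shown above, chr11:68321480-68321693, was at percentiles 87.5 and 57.6. Another site of both RNF12 lists, chr11:68240133-68240253, was at 44.1 and 38.2.
Both RNF12 lists also had a coding exon site at chr11:68260518-68260635 (percentiles 72.6 and 13.8) and a site in the 3′ untranslated region at chr11:68211857-68212020 (23.9 and 38.2), neither with REX1. Upstream of the gene, the REX1 peak at position -3566 (5.86, percentile 79.6) was the sole peak in the flanks.

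**Figure D3:**
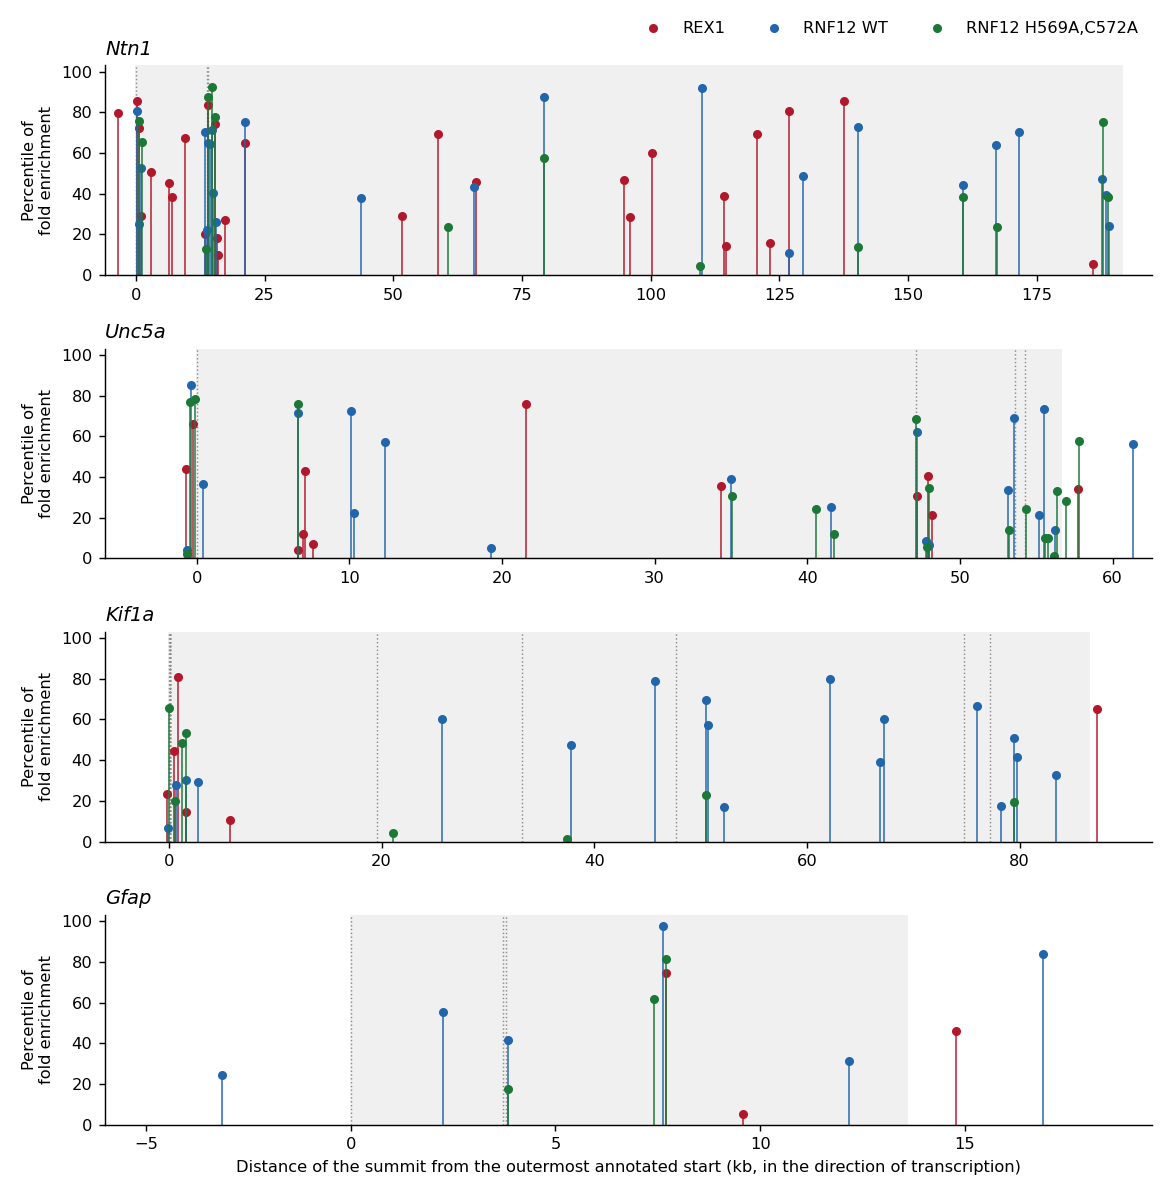
Every peak along each gene, as the distance of its summit from the outermost annotated start (x axis, kb) and its percentile within its list (y axis). Grey shading is the gene body and dotted lines are annotated starts; at Ntn1 red REX1 peaks fill the introns, and at Kif1a blue RNF12 WT peaks continue where REX1 peaks end.

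At Unc5a (chr13:54949411-55006018, plus strand) the lists met at the outer start and at an inner start, and parted at the 3′ end. Of 27 sites, 5 were in all 3 lists, 5 in 2 lists and 17 in 1 list.
The site at chr13:54948858-54949976, over the CpG-rich promoter shown above, had its highest summits upstream of the start. REX1 had its summit at -236 (5.02, percentile 66.0), RNF12 WT at -388 (6.17, 85.4) and RNF12 H569A,C572A at -126 (11.1, 78.2), with a second peak of the last at -418 (10.7, 76.8). The RNF12 WT peak here was the highest of that list at Unc5a, as was the RNF12 H569A,C572A peak at -126. A smaller site further upstream, chr13:54948614-54948844, was at percentiles 43.7 (REX1), 4.05 (RNF12 WT) and 2.08 (RNF12 H569A,C572A).
At the inner TSS at position 47128, the site at chr13:54996458-54996762 was at percentiles 68.4 for RNF12 H569A,C572A, 62.1 for RNF12 WT and 30.9 for REX1, and its summits fell within 72 bp. The next site, chr13:54996966-54997492, joined 5 peaks, the highest at percentile 40.3 for REX1, with 34.7 and 8.34 as the highest for RNF12 H569A,C572A and RNF12 WT.
The TSSs at 53599 and 54269 belong to short transcripts near the 3′ end, and only RNF12 peaks lay within 1 kb of them. The site at chr13:55002534-55002681 was in both RNF12 lists (percentiles 33.7 and 13.8). RNF12 WT alone had a peak at 53528 (5.29, percentile 69.0) and at 55181 (3.67, 21.4), and RNF12 H569A,C572A alone had one at 54300 (5.29, 24.5).

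One intron site of Unc5a was found in all 3 lists, at chr13:54955966-54956386. Its RNF12 WT and RNF12 H569A,C572A summits were 15 bp apart at percentiles 71.4 and 75.6. The 2 REX1 peaks in it were among the lowest of their list, at percentiles 4.26 and 11.8. The rank order of this site thus differed between REX1 and RNF12.
The highest REX1 peak of Unc5a lay in an intron at position 21607 (5.59, percentile 76.0), without RNF12. RNF12 WT had 4 intron sites of its own, REX1 had 5 and RNF12 H569A,C572A had 2, and 1 intron site was in both RNF12 lists (chr13:54984400-54984531, percentiles 39.2 and 30.5).
The 3′ end of the gene held 2 exon sites of both RNF12 lists, chr13:55004829-55005175 and chr13:55005433-55005820, where the highest RNF12 WT peaks were at percentiles 73.3 and 14.0 and the highest RNF12 H569A,C572A peaks at 9.83 and 33.0. Beyond the 3′ end, REX1 and RNF12 H569A,C572A shared a site at chr13:55007060-55007263 (percentiles 34.3 and 57.7). This flank overlaps the neighbouring gene Hk3, which encodes a hexokinase, so the peaks there cannot be assigned to Unc5a by position.

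Kif1a (chr1:93015464-93101951, minus strand) had the fewest REX1 peaks for its length and more RNF12 WT peaks, 16 of 18 with a −log10 q under 5, as were 55.3% of all RNF12 WT peaks. REX1 peaks lay at the start, whereas RNF12 WT peaks continued along the body. At the start, the site at chr1:93100664-93102185 joined 8 peaks of all 3 lists. REX1 was highest at position 862 (6.01, percentile 80.8), RNF12 H569A,C572A at -28 (8.53, 65.7) and RNF12 WT at 678 (3.93, 28.0). The other REX1 peaks of this site were at percentiles 44.3 and 23.4, and the other RNF12 WT peak at 6.52.
The intron site at chr1:93100235-93100530, whose sequence is shown first, had summits at 1595 for RNF12 H569A,C572A, 1614 for RNF12 WT and 1617 for REX1. It was at percentile 14.4 in the REX1 list (3.44), 30.0 in the RNF12 WT list (4.00) and 53.2 in the RNF12 H569A,C572A list (7.07). The 3 summits thus fell within 22 bp of each other. Ranked by −log10 q, the order differed, with REX1 at percentile 67.8, RNF12 H569A,C572A at 53.0 and RNF12 WT at 40.2.
The last REX1 summit inside the gene was at position 5761. Beyond it, the body had 14 RNF12 WT and 4 RNF12 H569A,C572A peaks. A further REX1 peak lay past the 3′ end at 87299 (5.02, percentile 65.1).

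Of the 15 RNF12 WT peaks inside the body of Kif1a and away from its starts, 6 had the summit in a coding exon, or 40% (19.8% to 64.3%). In the whole RNF12 WT list, 26.4% of such peaks were in coding exons, and the interval includes that share. Coding exons make up 6.34% of the body of Kif1a. The 6 peaks were at positions 25710, 37769, 45749, 50508, 62184 and 79467, with fold enrichments of 4.54 to 5.86 and a median percentile of 64.6. The highest, at 62184 (5.86, percentile 80.0), was the highest RNF12 WT peak of the gene. At 2 of the 6, the sites chr1:93051389-93051606 and chr1:93022422-93022549, RNF12 H569A,C572A also had a peak, at percentiles 23.0 and 19.5 against 69.3 and 50.6 for RNF12 WT. One further RNF12 WT peak lay within 1 kb of an internal start, at 78223 (3.50, percentile 17.5).
In all 4 genes, coding exons held 3 of 34 REX1 peaks (8.82%, 3.05% to 23.0%), against 16.4% of the whole list. The counts were 11 of 42 for RNF12 WT (26.2%, 15.3% to 41.1%, against 26.4%) and 6 of 26 for RNF12 H569A,C572A (23.1%, 11% to 42.1%, against 22.1%), so each list's share lay inside the interval of the members.

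Counting REX1 and RNF12 WT peaks together, RNF12 WT made up 18 of 24 at Kif1a, or 75% (55.1% to 88.0%). The median share over 6611 protein-coding genes with at least 10 such peaks was 52.9%, and 3.24% of these genes had a share as high as that of Kif1a. The share was 61.3% (43.8% to 76.3%) at Unc5a and 46.2% (33.3% to 59.5%) at Ntn1, and both intervals include the median. Gfap, with 6 of 9, had too few peaks for this comparison. The excess at Kif1a was absent among peaks of higher significance. With peaks of −log10 q of at least 5 alone, a limit chosen for this share after it was seen, RNF12 WT made up 2 of 6 (33.3%, 9.68% to 70.0%), and those 2 were the coding exon peaks at 45749 and 62184. At that limit the median share over 6606 of those genes was 50%, against 52.9% before, and 84.6% of them had a share as high as that of Kif1a. Whether the share would recur in other libraries was not tested.

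**Figure D4:**
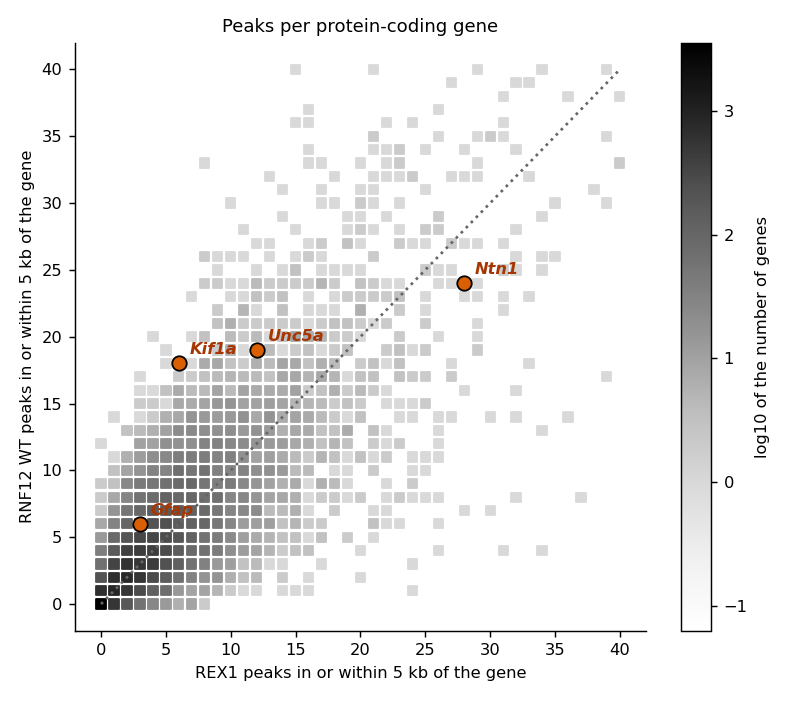
REX1 peaks (x axis) and RNF12 WT peaks (y axis) in or within 5 kb of each protein-coding gene; grey squares are shaded by the log10 number of genes, axes end at 40 peaks and the dotted line marks equal numbers. Kif1a lies at 6 and 18, well above the line, Ntn1 at 28 and 24 just below it.

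Gfap (chr11:102887336-102900912, minus strand) had 8 sites, of which 1 was in all 3 lists. Its outermost TSS belongs to a non-coding transcript and had no peak within 1 kb in any list. The TSSs at 3712 and 3781, where its protein-coding transcripts begin, had a site of both RNF12 lists at chr11:102896884-102897111. The summits were 10 bp apart, at 3836 for RNF12 WT (4.36, percentile 41.6) and at 3846 for RNF12 H569A,C572A (4.87, 17.6). No REX1 peak lay within 1 kb, and the nearest REX1 summit was that of the exon site at 7703.
That site, at chr11:102893027-102893574 inside the gene, was the highest of Gfap in every list. REX1 and RNF12 H569A,C572A had summits on the same base, position 7703, in a coding exon (5.56, percentile 74.6, and 12.0, percentile 81.5). The RNF12 WT summit was 66 bp away in the adjoining intron, with a fold enrichment of 8.30 at percentile 97.8, rank 2146 of 97602. This was the highest-ranked peak of any list at the 4 genes. A second RNF12 H569A,C572A peak lay at 7408 (8.00, percentile 61.8).
The other Gfap peaks were each in 1 list. REX1 had a peak in an exon at 9588 (2.91, percentile 5.09) and one past the 3′ end at 14792 (4.34, 46.0). RNF12 WT had intron peaks at 2262 (4.81, 55.4) and 12172 (4.02, 31.6) and flank peaks at -3144 (3.80, 24.4) and 16916 (6.07, 83.9). The last overlaps Ccdc103 and the REX1 flank peak overlaps Fam187a, and a long non-coding transcript, Gm26668, spans the whole gene, so assignment to Gfap is by position alone.

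**Figure D5:**
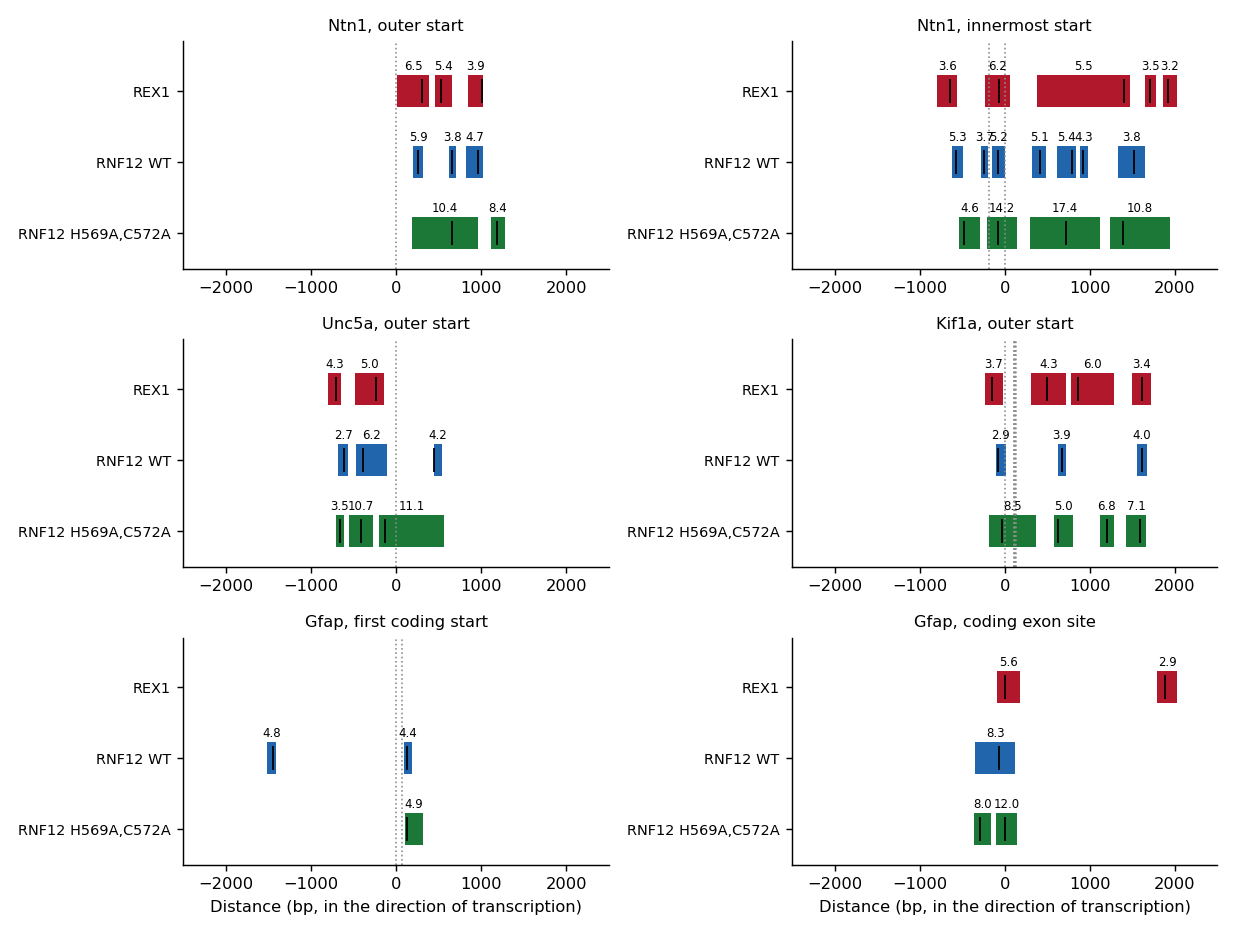
Peak intervals (bars) and summits (black ticks) around 5 starts and the Gfap exon site, as distance in bp (x axis) for each list (y axis); dotted lines are annotated starts and the values printed over the bars are fold enrichments on the scale of each list. All 3 lists have bars at the starts of Ntn1, Unc5a and Kif1a, and the REX1 row is empty at the coding start of Gfap.

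Sharing at the 4 genes followed the position of the peaks. Of 97 sites, 12 were in all 3 lists, and 9 of these were at promoters. With an overlap of 50% of both peaks required, 4 sites were in all 3 lists, 1 at Ntn1, 2 at Unc5a, 1 at Kif1a and 0 at Gfap. Of the 12 sites joined by an overlap of 1 bp, the 3 outside promoters are the Unc5a and Kif1a intron sites and the Gfap exon site. Of 15 promoter sites, 60.0% (35.7% to 80.2%) were in all 3 lists, against 2 of 58 intron sites (3.45%, 0.951% to 11.7%). Any promoter peak makes a site a promoter site, so sites that chain many peaks fall more readily into this class and into all 3 lists. Part of this contrast is thus built in, whereas the shares by peak below give each peak its own class. At the 12 sites the closest REX1 and RNF12 WT summits were 3 to 152 bp apart, with a median of 61.5 bp, and those of the RNF12 lists 0 to 101 bp, with a median of 33.5 bp.
Counted by peak, 9 of 11 REX1 promoter peaks (81.8%, 52.3% to 94.9%) overlapped a peak of both other lists, against 58.7% of all REX1 promoter peaks. For RNF12 WT this was 15 of 22 (68.2%, 47.3% to 83.6%) against 56.2%, and for RNF12 H569A,C572A 11 of 15 (73.3%, 48.0% to 89.1%) against 60.3%. Away from promoters it was 6 of 38 REX1 peaks (15.8%) against 17.3%, 4 of 45 RNF12 WT peaks (8.89%, 3.51% to 20.7%) against 19.2% and 4 of 28 RNF12 H569A,C572A peaks (14.3%) against 14.6%. Promoter peaks of these genes were therefore shared about as often as promoter peaks in general, within the width of the intervals.

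In pairs of lists, RNF12 WT peaks lay on 18 of 49 REX1 peaks (36.7%, against 39.5% of the whole list) and RNF12 H569A,C572A peaks on 19 (38.8%, against 40.7%). An RNF12 H569A,C572A peak lay on 32 of the 67 RNF12 WT peaks (47.8%, against 51.9% of the list) and a REX1 peak on 21 (31.3%, 21.5% to 43.2%, against 41.2%). Of the 43 RNF12 H569A,C572A peaks, 17 (39.5%) overlapped a REX1 peak, against 34.2%. In the same list 30 of 43 (69.8%, 54.9% to 81.4%) overlapped an RNF12 WT peak, against 42.6%, a share below the interval. By gene it was 9 of 14 peaks at Ntn1 (38.8% to 83.7%), 13 of 18 at Unc5a (49.1% to 87.5%), 5 of 8 at Kif1a (30.6% to 86.3%) and 3 of 3 at Gfap (43.9% to 100%), and the intervals of Ntn1 and Kif1a include the share of the list. With peaks of −log10 q of at least 5 in both lists, 10 of 25 (40%, 23.4% to 59.3%) overlapped, against 27.2% of the whole list, and that interval includes the share of the list. Neighbouring peaks of 1 gene are not independent, and the difference was not tested.
RNF12 H569A,C572A peaks that overlapped both other lists had a median percentile of 75.6 over 15 member peaks, close to the 75.8 of all such peaks of the list. Those that overlapped 1 other list were at 23.0 over 17 peaks, against 48.5, and those that overlapped none at 23.9 over 11, against 39.0. The same medians were 43.7, 34.3 and 43.1 for REX1, against 59.0, 46.7 and 47.6, and 52.4, 41.6 and 47.2 for RNF12 WT, against 54.0, 43.8 and 51.6. The higher rank of fully shared RNF12 H569A,C572A peaks was thus a property of the whole list.

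The ATGGCNNC string lay within 50 bp of 7 of 49 REX1 summits (14.3%, 7.1% to 26.7%), against 20.1% of the whole REX1 list. It lay at 3 of 67 RNF12 WT summits (4.48%, 1.53% to 12.4%), against 9.10%, and at 1 of 43 RNF12 H569A,C572A summits (2.33%, 0.412% to 12.1%), against 6.79%. All these summits were away from promoters, and 0 of 11 REX1 promoter summits had a match (0% to 25.9%). That interval includes the 20.1% of the whole REX1 list. AAGATGGC was found once, at the REX1 peak upstream of Ntn1, where it spans the summit base. This is 2.04% of the REX1 member summits (0.361% to 10.7%), and the interval includes the 5.65% found over the whole REX1 list. Neither RNF12 list had a match at a member summit, with upper limits of 5.42% (RNF12 WT) and 8.20% (RNF12 H569A,C572A). The shares over these whole lists, 1.82% and 1.70%, lie below those limits. The longer RNF12 motif, with up to 1 mismatch, was at none of the 159 summits, against 3.12% of the REX1 list, 4.48% of the RNF12 WT list and 5.25% of the RNF12 H569A,C572A list.
The match in the Kif1a intron site reads ATGGCCGC on the plus strand, at chr1:93100324-93100331, with its centre 7 bp from the REX1, 10 bp from the RNF12 WT and 29 bp from the RNF12 H569A,C572A summit. In the Ntn1 intron shown, ATGGCTGC lay 2 bp from the REX1 summit. The other REX1 matches were in introns of Ntn1 at positions 6513 and 120594 and of Unc5a at 7111 and 7598, and the other RNF12 WT matches were in introns of Kif1a at 67208 and 75997. Among the 32851 RefSeq promoter entries, all of the same length, 16.6% hold ATGGCNNC, 2.75% AAGATGGC and 0.472% the RNF12 motif. Each entry is longer than the window searched around a summit, so these shares cannot be compared with the shares of summits above. The Kif1a entry at the outer start holds ATGGCNNC 1 time, and the Unc5a and Gfap entries hold none of the strings.
The median GC content within 100 bp of the summits was 63.7% for RNF12 H569A,C572A (60.7% over its list), 61.7% for RNF12 WT (60.7%) and 58.2% for REX1 (57.2%). Soft-masked bases were fewer than in the RNF12 H569A,C572A list at large, with a median of 10.4% against 42.3%. Their median was 0% at the REX1 peaks, against 4.98% in the whole list, and 0% at the RNF12 WT peaks, as in the whole list.

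Genes of related function, taken from 5 lists of 56 genes that include the 4 members, had promoter peaks at a larger share than protein-coding genes in general when pooled, while the glial markers lay below the general share for REX1, for RNF12 H569A,C572A and for all 3. A REX1 promoter peak was found at 51 of 56 (91.1%, 80.7% to 96.1%), an RNF12 WT peak at 52 (92.9%), an RNF12 H569A,C572A peak at 50 (89.3%) and all 3 at 47 (83.9%, 72.2% to 91.3%), against the shares of 67.5%, 68.9%, 67.7% and 60.7% given above. In the top 20000 peaks of each list by −log10 q the difference was smaller, with 41.1% against 35.3% for REX1, 32.1% against 28.3% for RNF12 H569A,C572A, 53.6% against 40.4% for RNF12 WT and 17.9% (10.0% to 29.8%) against 14.3% for all 3. The lists were chosen with results of these data known, and the difference was not tested.
Among 13 netrin ligands and receptors, 11 had promoter peaks in all 3 lists, including Ntn1, Ntn3, Ntn4, Ntng1 and Ntng2. Dcc, the receptor through which netrin-1 attracts axons, had a promoter peak in the REX1 list alone, at percentile 7.26. The other exception, named after its values were seen, was Ntn5, without an RNF12 H569A,C572A promoter peak. In the REX1 list the best promoter peak of Ntn1 was at percentile 85.4, that of Unc5a at 66.0 and that of Unc5b, another UNC5 receptor named after its values were seen, at 95.5. In the RNF12 WT list they were at 80.5, 85.4 and 84.7, and in the RNF12 H569A,C572A list at 92.6, 78.2 and 92.7.
All 7 kinesin-3 motors had promoter peaks in all 3 lists, among them Kif1a, Kif1b, Kif1c, Kif13a and Kif13b. In the RNF12 WT list Kif1a was the lowest of the 7, at percentile 28.0, while the others ranged from 76.8 for Kif14 to 99.2 for Kif1b, which also moves vesicle precursors. In the REX1 list Kif1a, at 80.8, was exceeded by Kif1b (98.7) and Kif16b (82.3). In the RNF12 H569A,C572A list Kif1a was at 65.7, between Kif14 at 60.2 and Kif1c at 67.2, and the other 4 ranged from 80.2 to 96.3.
Of 10 intermediate filament genes, 9 had all 3 promoter peaks within 1 kb of a start, including Vim, Des, Prph, Nes and Ina, against 5 within 500 bp, and Gfap was the exception through its missing REX1 peak. Vim, the filament of mesenchymal cells and immature glia, was at percentile 95.7 for REX1, 68.0 for RNF12 H569A,C572A and 87.5 for RNF12 WT, whereas Gfap was at 17.6 for RNF12 H569A,C572A and 41.6 for RNF12 WT.
Of 8 glial marker genes, 4 had a REX1 promoter peak (50%, 21.5% to 78.5%), 5 an RNF12 H569A,C572A one (62.5%), 6 an RNF12 WT one (75%) and 3 all of them (37.5%, 13.7% to 69.4%). With 8 genes, these intervals include the general shares. The 3 were Slc1a2 and Glul, which take up and convert glutamate, and the transcription factor Sox9. The rest were named after their values were seen. Aldh1l1, a folate enzyme of astrocytes, had promoter peaks in the RNF12 lists alone, as Gfap did, Slc1a3 lacked an RNF12 H569A,C572A promoter peak, and the water channel gene Aqp4 and S100b had none in any list.
Of 19 other axon guidance genes, 17 had promoter peaks in all 3 lists, including Slit1, Slit2, Slit3, Robo1 and Robo2. Sema3a, a repulsive semaphorin, had a promoter peak in the REX1 list alone (percentile 29.3), and Robo3, named after its values were seen, in the RNF12 lists alone (percentiles 85.5 and 49.5).

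The peak furthest out but still inside the 5 kb limit was the RNF12 WT peak 4751 bp past the end of Unc5a (fold enrichment 4.82), and the nearest outside were an RNF12 H569A,C572A peak 5174 bp (3.27) and a REX1 peak 5261 bp (4.54) from the same gene.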

How the data were processed

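The authors trimmed the reads with Trim Galore 0.6.7, aligned them with Bowtie2 2.5.0 to mm10 masked at sites differing between 129/Sv and Cast/Ei, merged alleles after SNPsplit with SAMtools 1.10, and called peaks per library with MACS2 2.2.7.1 in narrow mode. The deposited values are a fold enrichment (a ratio to the control), −log10 p and −log10 q as MACS2 gives them, a summit offset, and a score; the authors' score and −log10 p were not used. The 2 input libraries were not analysed here. Fold enrichments were used within a list alone. Genes and TSSs came from GENCODE release M21, sequences from GRCm38 and RefSeq promoters; every peak ended inside its GRCm38 chromosome.

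The members and lists were chosen with earlier results of these data known. Every member peak was listed; named in full were the peak of highest fold enrichment per member and list, sites in 2 or 3 lists and promoter sites. From the 5 related lists, up to 5 genes with promoter peaks in all 3 lists, and those in 1 list alone, were named, and other genes only where they overlap a named peak or as stated. Medians of percentiles carry binomial order-statistic intervals at 95%. Window and overlap steps and the search for ATGGCNNC and AAGATGGC were checked on simulated data, whereas the search for the RNF12 motif was not. Alternatives covered the −log10 q limit, window, overlap, promoter distance, ranking column and motif window. Python 3.11.15, numpy 2.4.6 and pandas 2.3.3 were used.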

Additional observations from a re-analysis of the deposited data

How the results depend on the processing

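With 1 library per list and unknown depth, the values describe these libraries and carry no replicate error. No paired analysis was possible because each group has 1 library and no test was made. Of 100 alternatives to the main counts, medians and shares, 71 left the count within 1.5 times, or the median or share inside its interval. Of 220 alternatives to the counts and medians by gene or gene list, 163 stayed by the same rules and 57 moved. Intervals of the medians by gene are wide. Ranked by −log10 q, the REX1 median at Unc5a was 18.9 against 34.9, and it counts as having stayed. For the main counts and medians, all results stayed with a −log10 q of at least 2, the gene body alone, 10 kb flanks and another promoter distance. They also stayed with the outermost start alone and with ranking by −log10 q, although the outermost start alone removed the RNF12 promoter peaks of Gfap. Stricter limits leave fewer peaks by construction. At −log10 q of at least 5, member peaks numbered 25 for RNF12 H569A,C572A, 23 for REX1 and 22 for RNF12 WT, sites in all 3, 2 and 1 lists 5, 6 and 34, and members with an RNF12 WT promoter peak 2. In the top 20000 peaks of each list by −log10 q, not by fold enrichment, these were 2, 6 and 5 peaks and 0, 5 and 3 sites, with promoter peaks at 2 members for RNF12 WT, 1 for RNF12 H569A,C572A and 1 for all 3, and at 23, 30, 18 and 10 of the 56 related genes for REX1, RNF12 WT, RNF12 H569A,C572A and all 3. The excess of RNF12 WT over REX1 peaks was thus lost at both of these limits, which are set by −log10 q. Limits by fold enrichment were not among the alternatives. At −log10 q of at least 5, chosen for these shares after seeing the data, the RNF12 WT share at Kif1a was 33.3% and the share of RNF12 H569A,C572A peaks on an RNF12 WT peak 40%. By gene, sites in all 3 lists at that limit were 3 at Ntn1, 1 at Unc5a, 0 at Kif1a and 1 at Gfap, and genes with promoter peaks in all 3 lists 7 netrin ligands and receptors, 11 other axon guidance genes and 1 glial marker. Promoters within 500 bp gave 5 intermediate filament genes in all 3 lists. Requiring 50% of both peaks to overlap left 4 sites in all 3 lists and 119 in 1 list, and summits within 100 bp gave 22 sites in 2 lists. Within 100 bp of the summit, ATGGCNNC was at 8 RNF12 WT and 3 RNF12 H569A,C572A peaks, AAGATGGC at 1 RNF12 WT peak and the RNF12 motif at 1 REX1 peak.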
